A study of Caenorhabditis elegans with 2 samples.

Results

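Autosomal intergenic peaks of HIF-1, away from promoters, numbered 936 of the 6541 peaks in the authors' pooled list, or 14.3% of it and 18.1% of its 5159 autosomal summits. They were chosen by position alone. A member's summit lay on 1 of the 5 autosomes, outside every protein-coding gene, and neither in the promoter window of a protein-coding gene (1000 bp upstream to 200 bp downstream of its start) nor near the start of a tRNA, snoRNA or snRNA gene (500 bp upstream to 200 bp downstream). The other autosomal summits comprised 1800 promoter peaks, 2365 peaks in gene bodies and 58 at small RNA gene starts. The study mapped where HIF-1 sat on chromatin by chromatin immunoprecipitation and sequencing (ChIP-seq) in 1 group of whole Caenorhabditis elegans hermaphrodites, with 2 replicates from separate biosamples. These were larvae of the fourth stage (L4) of strain OR3350, 55 h after synchronisation, and both replicates carried a transgene that gives HIF-1 a C-terminal GFP and FLAG tag. The chromatin was sheared by sonication and precipitated with an antibody against GFP. The labels give no oxygen condition and no promoter for the transgene, so no condition could be compared, and peaks of different tissues cannot be told apart in whole animals.

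HIF-1 is the worm hypoxia-inducible factor, a helix-loop-helix transcription factor that binds DNA together with AHA-1. When oxygen is plentiful the prolyl hydroxylase EGL-9 marks it for degradation through VHL-1, and the membrane protein RHY-1 also holds it down. The pair binds the hypoxia response element, whose core is ACGTG or GCGTG. Worm genes lie close together and much of the known regulatory sequence is near gene starts, so intergenic sequence beyond the promoter is where enhancers, noncoding RNA genes and unannotated starts may be found.

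The plus-strand sequence is printed for some of the strongest members, chosen by rank and by a neighbour of known role. The number of windows with the core is therefore not a share. The members at cmd-1 and dhs-8, at ranks 4 and 9 and without the core, are not printed. Each line gives the summit base and 50 bases to either side of it, from the RefSeq copy of the WBcel235 assembly, which is ce11, and each is named for the gene whose start is nearest. Capitals mark the element core on either strand, so CACGT and CACGC are the core read on the minus strand. The first 7 hold it. The last 3, at sup-26, hif-1 and nspe-6, are strong members without it.
egl-9, chrV:10466723-10466823: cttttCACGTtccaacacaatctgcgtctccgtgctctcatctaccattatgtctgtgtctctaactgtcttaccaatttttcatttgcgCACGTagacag
oac-54, chrII:9156427-9156527: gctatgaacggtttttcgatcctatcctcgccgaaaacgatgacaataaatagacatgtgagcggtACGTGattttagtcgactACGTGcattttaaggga
tpi-1, chrII:12040379-12040479: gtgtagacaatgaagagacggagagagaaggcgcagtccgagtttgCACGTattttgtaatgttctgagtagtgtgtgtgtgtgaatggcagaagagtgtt
cysl-2, chrII:14495528-14495628: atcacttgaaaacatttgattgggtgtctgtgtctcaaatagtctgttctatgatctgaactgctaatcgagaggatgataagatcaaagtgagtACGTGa
tgt-1, chrIV:11956529-11956629: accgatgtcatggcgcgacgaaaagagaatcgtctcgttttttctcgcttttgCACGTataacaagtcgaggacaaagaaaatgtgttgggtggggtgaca
cysl-3, chrV:3777132-3777232: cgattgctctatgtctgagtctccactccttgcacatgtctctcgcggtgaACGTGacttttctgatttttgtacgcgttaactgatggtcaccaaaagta
mml-1, chrIII:7376555-7376655: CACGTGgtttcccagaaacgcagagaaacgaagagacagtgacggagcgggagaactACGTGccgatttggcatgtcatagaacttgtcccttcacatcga
sup-26, chrIII:4282166-4282266: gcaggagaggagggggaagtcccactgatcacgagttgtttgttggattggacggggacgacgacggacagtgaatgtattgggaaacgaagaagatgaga
hif-1, chrV:20778340-20778440: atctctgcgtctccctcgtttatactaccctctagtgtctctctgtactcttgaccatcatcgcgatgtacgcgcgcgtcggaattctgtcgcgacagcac
nspe-6, chrII:12615593-12615693: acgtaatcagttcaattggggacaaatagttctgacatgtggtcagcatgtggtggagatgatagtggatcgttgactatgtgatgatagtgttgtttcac

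The values below are the authors' own signal value of each peak, a score relative to a control with no stated formula. Classes of peaks were compared only within a list, since values from different lists are on different scales. Where values of the 2 replicates are set side by side, they describe the listed numbers only. With no read counts in the lists, the depth behind a value is unknown. Replicate 1 had 13935 peaks in its own list, of which 2135 (19.2% of the autosomal ones) met the same intergenic rule, and replicate 2 had 13823, of which 2003 (18.1%) met it.

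Within the pooled list the members ranged from 21.2 to 688, with a median of 26.2, so that most of them sat close to the lowest value listed. The median was 28.6 in autosomal promoter peaks and 25.1 in gene bodies. Intergenic members had 0.915 times the median signal of promoter peaks in the pooled list, 0.946 times in replicate 1 and 0.939 times in replicate 2. Against gene bodies the ratio was 1.04 in the pooled list, 1.03 in replicate 1 and 1.01 in replicate 2. Both replicates thus gave the same order of classes, with small steps between them. No test was made, because 2 replicates cannot give an exact permutation p below 0.5.

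The authors also deposited a thresholded set, the 631 pooled peaks that passed their reproducibility analysis (irreproducible discovery rate, IDR). It held 93 members, or 9.94% (95% Wilson interval 8.18 to 12.0), against 9.65% of all pooled peaks. That share is near the background and is not a result about the members. The 93 were the members of highest pooled signal, from 54.4 up, and the next member had 53.7. Among members, being in the set was thus the same as a cut on that signal. Promoter peaks were in the set in 13.7% of cases (12.2 to 15.3) and gene body peaks in 4.95% (4.14 to 5.90). The intergenic interval does not overlap that of either class, although the differences were not tested and all peaks come from the same 2 libraries. Intergenic summits on chromosome X, chosen by the same rule, were in the set in 12.6% of 348 cases (9.56 to 16.5).

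A summit within 100 bp was present in both replicate lists for 414 members (44.2%, interval 41.1 to 47.4), against 46.2% of all pooled peaks, again near the background. It was present for 53.7% of promoter peaks and 40.6% of gene body peaks. Replicate 1 held a matching summit for 665 members and replicate 2 for 642, while 43 members had none within 100 bp in either list. Whether a replicate's peak overlapped these 43 was not checked. Of the 93 thresholded members 84 were in both lists. That follows from how the set was made and is no separate evidence.

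**Figure D1:**
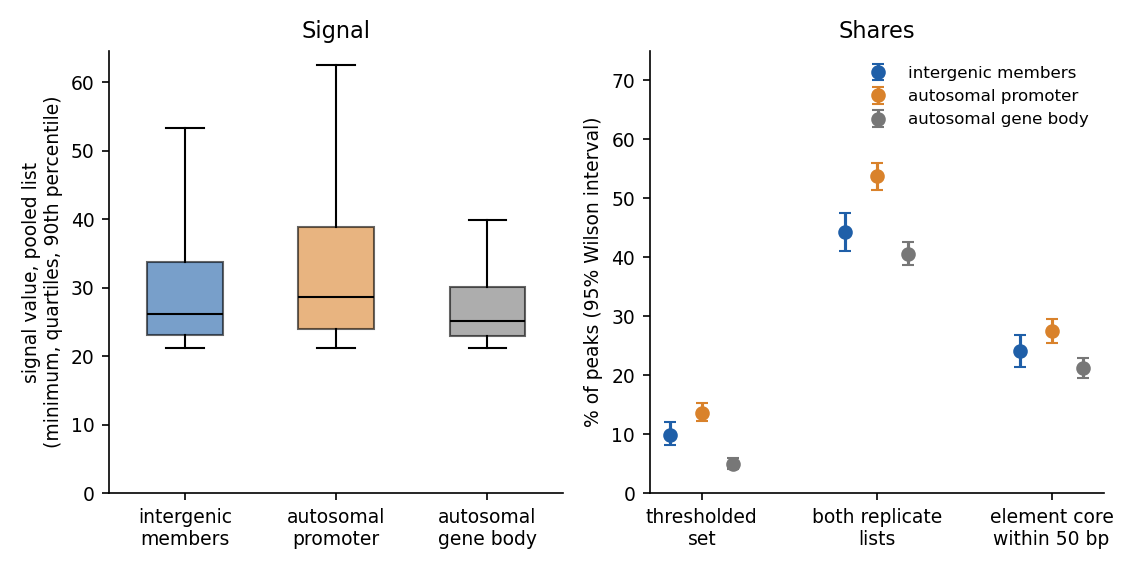
Left, pooled signal value of the 936 intergenic members, the 1800 promoter peaks and the 2365 gene body peaks, all autosomal (box, quartiles with the median; whiskers, minimum and 90th percentile). Right, the share of each class in the thresholded set, in both replicate lists and with the element core near the summit, with 95% Wilson intervals; the members lie between the promoter and gene body peaks in all 3 shares.

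Over the 414 members found in both replicates, the signal of the 2 replicates had a Spearman rho of 0.592 and, on the log2 scale, a Pearson r of 0.792. This describes sites that share the same 2 libraries. Replicate 1 was higher in 233 of these members, with a median ratio of replicate 1 to replicate 2 of 1.07. Among the 84 thresholded ones replicate 1 was higher in 62, with a median ratio of 1.32, and in thresholded promoter peaks the median ratio was 1.16. Strong members thus had the larger listed values in replicate 1. The scale and depth of the 2 lists are unknown, so this cannot be read as a difference in binding.

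**Figure D2:**
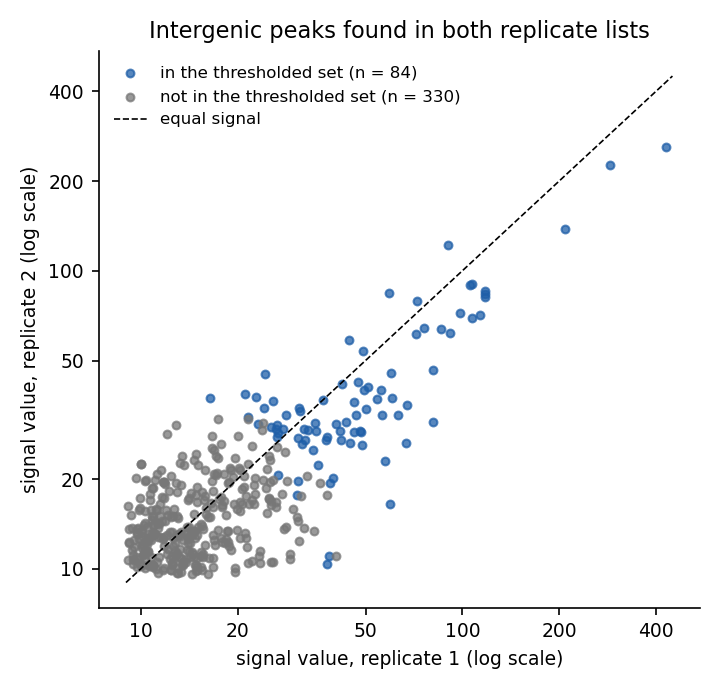
Signal value in replicate 2 against replicate 1, both on log axes, for the 414 intergenic members with a summit in both replicate lists; blue, the 84 in the thresholded set; grey, the other 330. Most blue points at the upper end lie below the dashed line of equal signal, where replicate 1 is the higher, as it was in 62 of the 84.

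The strongest member lay 1744 bp upstream of egl-9, the hydroxylase gene that limits HIF-1 itself (peak at chrV:10466542-10466957). Its signal was 688 in the pooled list, 430 in replicate 1 and 260 in replicate 2. The summit fell inside a pair of overlapping noncoding RNA genes on opposite strands, F22E12.10 and F22E12.9. Its window, printed above, has 2 cores near its outer ends, the nearer one 42 bp from the summit. The egl-9 promoter had a peak of its own with a pooled signal of 122, so the intergenic peak was the larger of the pair.

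Next came a member 1634 bp upstream of oac-54, which encodes an acyltransferase-like protein (chrII:9156282-9156683). Its signal was 512 in the pooled list, 288 in replicate 1 and 226 in replicate 2. It was 1 of 4 members spread over 2161 bp between the cuticle collagen gene col-78 and oac-54, with 3 of the 4 in the thresholded set. The member nearest col-78, 1990 bp downstream of that gene's start, had 175 in the pooled list, 107 in replicate 1 and 69.7 in replicate 2. The remaining ones had 74.7, in a peak interval shared with the main summit and not matched in replicate 1, and 45.4. Beyond oac-54 on the same strand lies rhy-1, the HIF-1 inhibitor, whose start is 4902 bp from the strongest of these summits. Promoter peaks stood at 93.7 for oac-54 and 838 for rhy-1.

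At cysl-2 and dhs-8, a cysteine synthase-like gene and a short-chain dehydrogenase gene that are read away from each other, both sides of the shared gap held a member. The summit 1127 bp upstream of cysl-2 (chrII:14495356-14495799) had 198 in the pooled list, 118 in replicate 1 and 81.9 in replicate 2. The summit 1098 bp upstream of dhs-8 (chrII:14496706-14497149), inside the noncoding RNA gene K10H10.14, had 194 in the pooled list, 107 in replicate 1 and 90.4 in replicate 2. The cysl-2 window holds 1 core, 47 bp from the summit, and the dhs-8 window none. Both genes also had promoter peaks, with 50.9 at cysl-2 and 59.4 at dhs-8, lower than the intergenic ones.

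A member 2017 bp upstream of hif-1 itself (chrV:20778168-20778611) had 146 in the pooled list, 86.0 in replicate 1 and 63.8 in replicate 2. A second one, 1815 bp upstream, had 35.5 and was matched only in replicate 2. Neither window holds the core, and no promoter peak of hif-1 was in the pooled list. The transgene carries hif-1 sequence, and whether that adds reads here was not tested. Beyond the end of hif-1, a member assigned to tpan-1 had 65.0, at 4953 bp downstream of the hif-1 start.

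Metabolic genes followed. At tpi-1, the gene of the glycolytic enzyme triosephosphate isomerase, a summit 1290 bp upstream (chrII:12040207-12040650) had 204 in the pooled list, 118 in replicate 1 and 85.5 in replicate 2, with a core 2 bp from it and no promoter peak. At cysl-3, a paralogue of cysl-2, a summit 1046 bp upstream (chrV:3776960-3777403) had 167 in the pooled list, 98.5 in replicate 1 and 71.9 in replicate 2, with a core 3 bp away. Between gdh-1, which encodes glutamate dehydrogenase, and tgt-1, which encodes a tRNA guanine transglycosylase, a summit in the noncoding RNA gene ZK829.13 (chrIV:11956357-11956800) had 196 in the pooled list, 106 in replicate 1 and 89.3 in replicate 2. It lay 3225 bp downstream of the tgt-1 start with a core 5 bp away. These 3 summits place the core almost at their centre, unlike egl-9 and cysl-2.

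A transcription factor gene was among the strongest as well. The summit 1874 bp upstream of mml-1, which encodes a Myc and Mondo-like helix-loop-helix factor (chrIII:7376383-7376826), had 156 in the pooled list, 72.4 in replicate 1 and 79.5 in replicate 2, and its window holds 2 cores. Replicate 2 was the higher here, which was the case in only 3 of the 20 strongest members, against 16 higher in replicate 1. The other such members lay at cmd-1, the calmodulin gene, where the pooled signal was 217 in the noncoding gene linc-128 at 4820 bp upstream, and at K08F11.1, where it was 147.

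Other strong members were mixed in this respect. The one at nspe-6, a gene of a nematode-specific peptide family (chrII:12615483-12615751), had 343 in the pooled list, 209 in replicate 1 and 138 in replicate 2, at 538 bp downstream of the start and without the core. The one at sup-26, which encodes an RNA-binding protein (chrIII:4281994-4282437), had 195 in the pooled list, 118 in replicate 1 and 83.7 in replicate 2, at 1992 bp upstream and also without it. At K08F11.1, 4 thresholded summits with 147, 122, 116 and 95.5 lay 704 to 3371 bp downstream of the start. The peak intervals of those with 147 and 95.5 overlapped, as did those with 122 and 116, so the 4 are not separate sites. The summits with 122 and 116 have a core, 36 and 47 bp away, and those with 147 and 95.5 have none. Only the summits with 147 and 95.5 were matched in both replicate lists, and the one with 116 was matched in neither. For the summit with 95.5 the match had 38.0 in replicate 1 and only 10.3 in replicate 2. The rest of the 20 strongest were nearest to F22B7.9 (183), K01H12.4 (152) and T04C4.3 (140), each with 1 core, and to the phosphatase gene ppm-2 (133) and D2023.4 (120), both without one. The last lay in the gap beside pyc-1, which encodes pyruvate carboxylase.

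**Figure D3:**
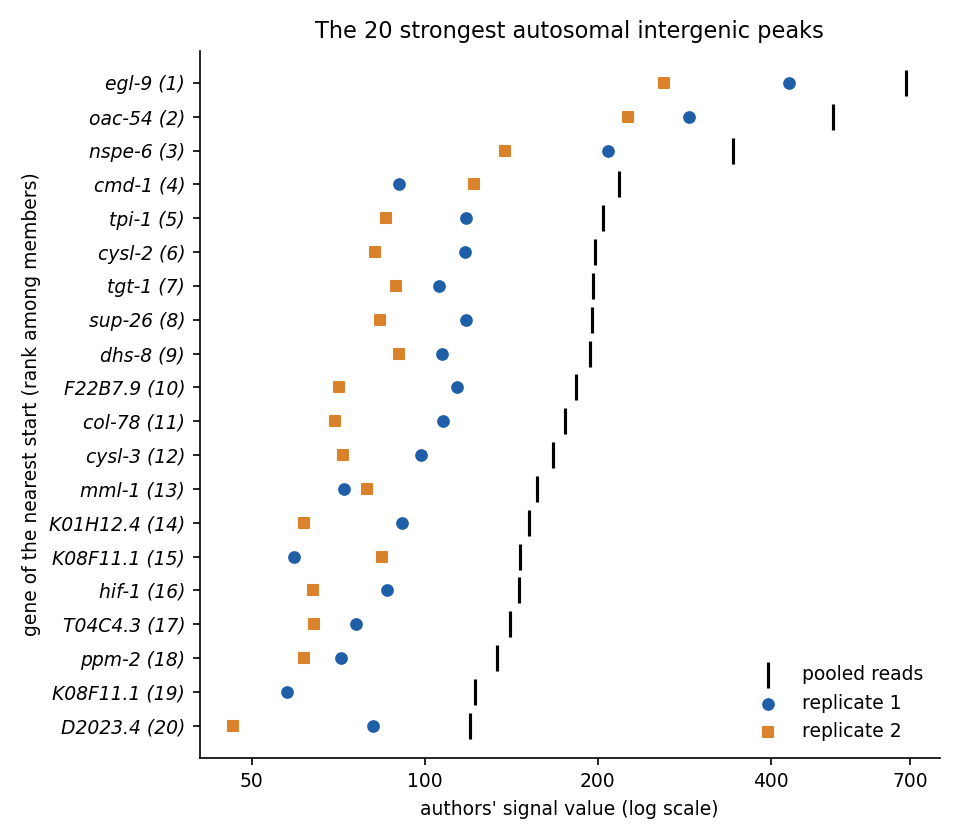
Authors' signal value on a log axis for the 20 strongest intergenic members, 1 row for each, named by the gene of the nearest protein-coding start with the rank in brackets; bars, pooled list; circles, replicate 1; squares, replicate 2. Among these rows the egl-9 member is highest in all 3 lists with 688, 430 and 260, replicate 1 is the higher in 16 rows, and the K08F11.1 member at rank 19 has no square because replicate 2 held no summit within 100 bp.

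Of these 20 members, 19 were in both replicate lists, 12 had the core within 50 bp of the summit, 13 lay upstream of the nearest start, and 5 lay in a noncoding RNA gene. Over all members the core stood within 50 bp of the summit in 225 (24.0%, interval 21.4 to 26.9), against 24.5% of all nuclear pooled peaks, near the background. The share was 27.5% in promoter peaks and 21.1% in gene body peaks. In intergenic sequence open to the rule, sampled every 200 bp, 12.1% of 96350 windows of the same length held it.

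The rule did not use sequence, so the core at the summit could be tested against the same member's own flanks. Among the 935 members with both flanks, 24.1% had the core at the summit, against 13.2% in the window centred 500 bp to the left and 12.3% in the one 500 bp to the right. By the exact McNemar test, two-sided and adjusted over 10 tests (5 motifs against 2 flanks), p was 8.89e-09 on the left and 2.26e-10 on the right. The members share the same 2 libraries, so this p measures differences between sites and not between animals. Among them 137, of which 29 were thresholded, overlapped the interval of another member. Some sites were thus counted more than once, so p may be too small and the intervals too narrow. In the 93 thresholded members the share was 46.2% at the summit, against 7.53% on the left and 9.68% on the right (adjusted p = 4.41e-07 and 7.03e-07, same exact test). Thresholded promoter peaks had the core in 48.8% of windows, inside the interval of 36.5 to 56.3 around the intergenic share. The flanks were poorer in GC. In windows of 51 bp, mean GC content was 40.3% at all members' summits, 34.2% at 500 bp to the left and 34.6% at 500 bp to the right. In thresholded members the values were 46.6%, 34.6% and 32.7%. The test does not adjust for this.

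**Figure D4:**
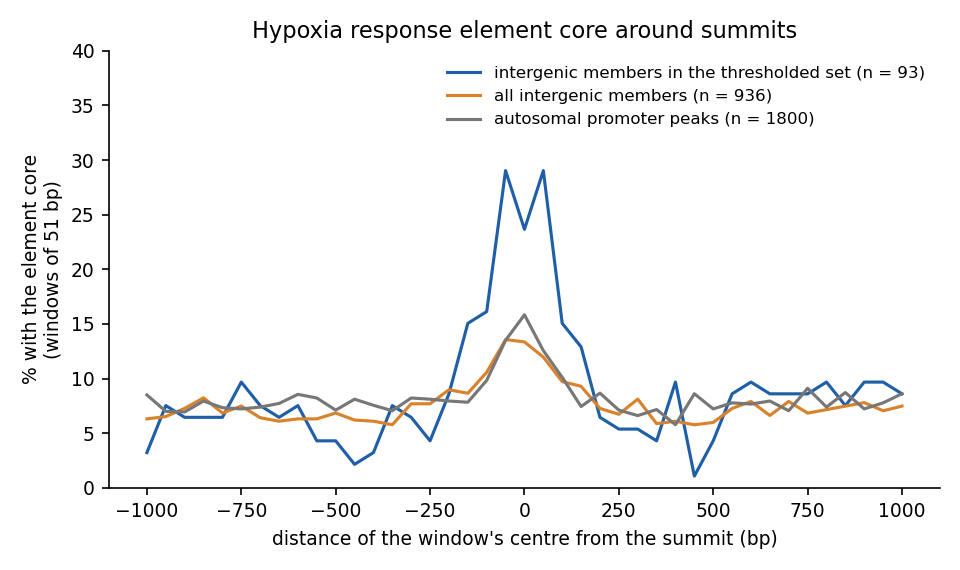
Share of windows of 51 bp that hold the core, against the distance of the window's centre from the summit, for the 93 thresholded intergenic members, all 936 members and the 1800 promoter peaks. The share reaches 29.0% beside the summit in thresholded members and 13.6% in all members, and from 300 bp outward it stays between 5.77% and 8.24% in all members.

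Signal and core went together across the members. With the members split by pooled signal into 5 groups of equal size, the core stood in 39.9% of the strongest group, then in 27.3%, 21.9% and 16.6%, and in 14.4% of the weakest, which is close to the 12.1% of sampled intergenic sequence. Members with the core had a median signal of 31.0 and were in the thresholded set in 19.1% of cases (14.5 to 24.8), against 25.2 and 7.03% (5.37 to 9.15) for members without it. Base composition moved with both. Median GC content was 45.5% in the strongest group and 35.6% in the weakest, and the Spearman rho of signal with GC was 0.34 over 936 sites. The core stood in 35.4% of the GC-richest members and 13.6% of the GC-poorest when the members were split in 3 by GC. The part of GC content in the share of the core, and of the other motifs below, was not tested.

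The sites that read TACGTG, an extended form of the core, stood in 5.03% of members, against 1.71% on the left and 1.18% on the right (adjusted p = 0.000146 and 2.9e-06, exact McNemar test). The E-box CACGTG, which holds the core on both strands and is bound by Myc-type helix-loop-helix factors, stood in 3.85%, against 2.14% and 1.07% (adjusted p = 0.044 and 0.000174, exact McNemar test). TGCGTC, searched on both strands like the rest, does not contain the core and stood in 8.24% of members, against 2.35% on the left and 1.82% on the right (adjusted p = 1.29e-08 and 4e-10, exact McNemar test). It can be read in the egl-9 window printed above, and in the hif-1 window, which has no core. The motifs were chosen with earlier results of these data known, so these p-values describe the sites and are not independent support.

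GAGAGA, on either strand, was the most frequent of the 4 other motifs searched. The same limit on p-values applies to this motif, chosen with earlier results of these data known. It stood in 18.7% of members (16.3 to 21.3), against 5.56% on the left and 5.45% on the right (adjusted p = 3.44e-17 and 2.89e-17, exact McNemar test), and in 5.51% of sampled intergenic sequence. Promoter peaks held it in 13.1% of cases (11.6 to 14.7), gene body peaks in 9.81% (8.68 to 11.1) and all nuclear pooled peaks in 12.5%. The members' interval lies above those of both other classes, a difference that was not tested. In thresholded members the share was 37.6%, against 7.53% on each side (adjusted p = 2.09e-05 on both, exact McNemar test). The tpi-1 window printed above holds it to the left of its core, and the cysl-3 and hif-1 windows hold it on the minus strand.

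The core stood in 26.3% of the 175 members with GAGAGA (20.3 to 33.3) and in 23.5% of those without it (20.6 to 26.7), so its share was about the same in both. Both stood in 46 members, of which 26.1% were thresholded (15.6 to 40.3). The core alone stood in 179, with 17.3% thresholded (12.5 to 23.5), and GAGAGA alone in 129, with 17.8% (12.2 to 25.3). In the 582 with neither, 4.64% were thresholded (3.21 to 6.67) and median GC content was 36.6%, against 41.6% with the core alone and 44.6% with GAGAGA alone. The 2 single-motif groups overlap in their intervals, and both lie above the group with neither.

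Distance to the nearest protein-coding start ran from 436 to 37742 bp, with a median of 2302 bp and quartiles of 1482 and 3742 bp. The distance of the 93 thresholded members had a median of 2155 bp. Signal varied little with distance. The Spearman rho of signal with distance was -0.07 over all 936 members and -0.18 over the 93 thresholded ones, a description of sites in the same libraries. From over 1000 to 1500 bp the median signal was 26.6 and 10.3% of 224 members were thresholded, and beyond 5000 bp the median was 25.3 and 8.76% of 137 were thresholded. The share with the core was 25.9% in the nearer band and 20.4% in the farther one, with overlapping intervals.

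The number of members for the sequence available was lower farther out, past the first 1000 bp. The rule left 19269664 bp of autosomal sequence eligible, 23.3% of the total, and the pooled list had 48.6 members per Mb of it, against 66.7 other summits per Mb elsewhere on the autosomes. The density was 67.9 per Mb from over 1000 to 1500 bp, 53.0 up to 2500 bp, 45.0 up to 5000 bp and 33.4 beyond 5000 bp. Replicate 1 gave 132, 124, 107 and 84.4 per Mb over the same bands, and replicate 2 gave 129, 114, 98.5 and 76.4, the same order in each list. The band of 1000 bp or less went against that order in part, with 45.5 per Mb in the pooled list (20 members, all downstream of the start of a short gene), 105 in replicate 1 (46 peaks) and 134 in replicate 2 (59 peaks). The first 2 values are lower than in the next band and the last is higher. Sequence in which 50 bases occur more than once in the genome made up 9.38% of the nearer band and 19.3% of the farthest, and its part in the lower density was not tested. Only 11 of the 936 members had such a repeated summit.

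**Figure D5:**
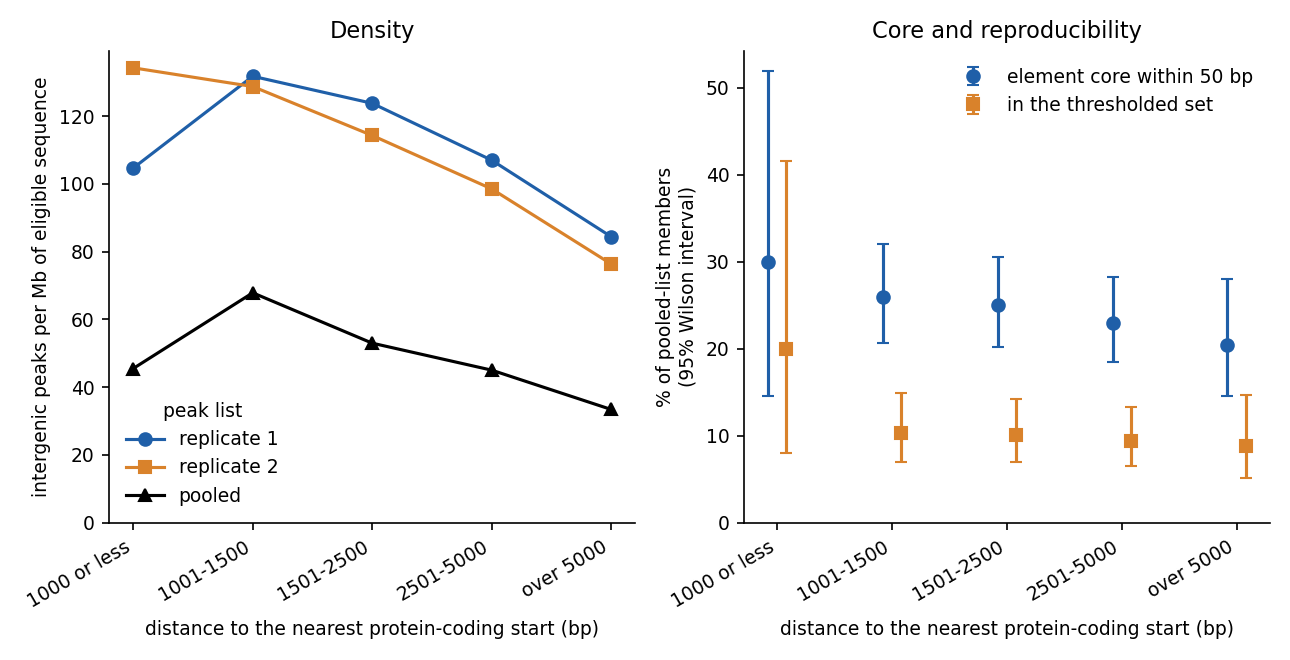
Left, intergenic peaks per Mb of eligible sequence against distance to the nearest protein-coding start, for the pooled list and each replicate list; past 1000 bp all 3 are lower with each step outward, the pooled list with 33.4 beyond 5000 bp and 67.9 from over 1000 to 1500 bp. Right, the share of pooled-list members with the element core and in the thresholded set in the same bands, with 95% Wilson intervals, which overlap across the bands.

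The 1000 bp edge of the promoter window did not mark a step. Just inside the rule, from over 1000 to 1250 bp upstream of a start, 97 members had a median signal of 27.4 and 13 were thresholded. Just outside it, at 751 to 1000 bp, 124 promoter peaks had a median of 28.0 and 19 were thresholded.

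Beyond 5000 bp from any start, 12 of the 137 members were thresholded, the 8.76% given above (5.08 to 14.7), which is near the 9.94% over all members. The 5 thresholded members farthest out are given with the distance to the nearest start. Downstream of it were those at K01F9.2 (11624 bp, pooled signal 54.7) and Y37A1B.7 (10620 bp, 62.6, in a noncoding RNA gene). The ends of these genes were nearer, at 4595 and 9435 bp. Upstream of the start were those at the aspartyl protease gene asp-13 (10448 bp, 64.9), aakg-1 (8290 bp, 61.1) and F54F12.1 (7258 bp, 57.1). All 5 members were in both replicate lists. At aakg-1, which encodes a regulatory subunit of the energy sensor AMP-activated kinase, replicate 1 had 30.9 and replicate 2 had 27.5, and a core lay 1 bp from the summit. At asp-13 replicate 1 had 37.6 and replicate 2 had 27.0, with 1 core 41 bp away. The other 3 summits had none within 50 bp.

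By the direction of the flanking genes, 543 members lay between tandem genes, 255 between divergent genes and 137 between convergent ones. Thresholded members made up 12.2% of those in divergent gaps (8.70 to 16.7), 9.76% in tandem gaps (7.54 to 12.5) and 6.57% in convergent gaps (3.49 to 12.0), with overlapping intervals. Upstream of the nearest start lay 635 members (67.8%), of which 11.2% were thresholded (8.96 to 13.9), against 7.31% of the 301 downstream (4.88 to 10.8). Another member lay within 2000 bp of 289, of which 57 were thresholded, beside 93 of all 936 members. For 137 of the 289, 29 of them thresholded, the peak interval overlapped that of the other member, so their summits cannot be counted as separate sites. Any other pooled peak lay within 2000 bp of 43.6% of members, against 43.3% of promoter peaks and 44.6% of gene body peaks. Over all members, grouping was thus about as frequent as in other peaks. Among thresholded peaks the share was 76.3% in members and 61.4% in promoter peaks. An overlap with another peak was found for 35.5% and 23.2% of these. The differences were not tested. In all, 579 members had neither another member nor a promoter peak within 2000 bp and included 26 thresholded ones.

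Noncoding genes or pseudogenes covered 103 of the summits. The 45 in genes of the class ncRNA had a median signal of 37.0 and 11 were thresholded, the egl-9 and dhs-8 members among them. The 18 in lincRNA genes had a median of 25.2 and 3 were thresholded, and the 37 in pseudogenes had a median of 24.2 and none thresholded. The 833 summits in no annotated gene had a median of 26.1, with 79 thresholded. One summit lay in the microRNA gene cel-mir-60, with a pooled signal of 43.7, 26.3 in replicate 1 and 16.8 in replicate 2.

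Along the chromosomes, members were denser in the middle. With each autosome divided into 3 equal lengths, the middle length had 63.6 members per Mb of eligible sequence and the outer ones 42.0. Replicate 1 gave 139.9 per Mb in the middle and 98.1 outside it, and replicate 2 gave 128.4 and 93.3. The middle was the denser on each of the 5 autosomes in the pooled list. Repeated sequence made up 10.6% of the eligible middle and 13.8% outside it, and its part was not tested. Between autosomes the density ran from 40.7 per Mb on chromosome IV to 63.6 on chromosome III.

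The starts of 766 genes, or 4.44% of the 17242 autosomal protein-coding genes, were nearest to a member, and 125 of these genes had more than 1. Lists of genes were described against that background. The counts are not tests, since the lists were chosen with results of these data known, and some genes have no eligible sequence. Of 10 autosomal genes in the pathway that controls HIF-1, 3 were nearest to a member (egl-9, hif-1 and swan-1), of the 6 with any eligible sequence. The swan-1 member, at 1553 bp upstream of that WD-repeat gene, had 29.5 in the pooled list and was matched only in replicate 1. The median over the 4 members of this list was 90.7, against 26.2 over all members.

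Among 16 autosomal genes described as regulated by HIF-1, 5 were nearest to a member (egl-9, oac-54, cysl-2, dhs-8 and the ferritin gene ftn-2), which is 38.5% of the 13 with eligible sequence, beside 8.11% of all autosomal genes that have any. Their 7 members had a median of 194, with 6 of them thresholded and 5 with the core. Over all members 9.94% were thresholded and 24.0% had the core. The oac-54 summits with 512 and 74.7 share a peak interval but are counted separately here, and the egl-9 member is also in the pathway list above. At ftn-2, an iron storage gene, a summit 1157 bp upstream on chromosome I had 69.2 in the pooled list, 40.5 in replicate 1 and 30.6 in replicate 2, with 1 core and no promoter peak. Other genes of this list had members nearby that were nearer to a neighbour. The member assigned to F35G2.5 (67.9) lay 2486 bp upstream of phy-2, a collagen prolyl hydroxylase gene, and the strongest of a pair assigned to btb-5 (82.9) lay 4024 bp downstream of the start of pck-1, the phosphoenolpyruvate carboxykinase gene.

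Glycolysis and gluconeogenesis had 3 of 22 autosomal genes nearest to a member, which were tpi-1, the pyruvate kinase gene pyk-1 (37.7) and pyc-1. The pyc-1 summit lay 5243 bp downstream of its start with 57.6 in the pooled list, 32.4 in replicate 1 and 27.0 in replicate 2. The promoter peak of pyc-1 had 112, and pyk-1, like tpi-1, had none. Sulfur metabolism had 2 of 16, cysl-2 and cysl-3, both above. In the same list sqrd-1 and ethe-1, which break down sulfide, had promoter peaks of 590 and 140 and no member.

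Among regulatory families, nuclear hormone receptor genes were nearest to a member in 20 of 246 cases, with a median of 26.1 and the highest, 84.6, at nhr-19. Homeobox genes had 3 of 45, led by ceh-45 (26.7), and helix-loop-helix factors 3 of 26, led by mml-1, with a median of 35.5 over their 5 members, which include those of hif-1. Neuropeptide and insulin genes had 9 of 106, led by nlp-40, a gut peptide gene. The nlp-40 member lay 5546 bp downstream of the start, only 204 bp past the end of the gene. It had 99.1 in the pooled list, 62.9 in replicate 1 and 32.9 in replicate 2. Cuticle collagens had 5 of 129, led by col-78. Cytosolic ribosomal protein genes had 4 of 76, led by rps-6 (32.7). The fewest were at C-type lectin genes with 2 of 237, led by clec-202 (29.4), at F-box genes with 4 of 305, led by fbxa-220 (28.1), and at heat shock and chaperone genes with 0 of 47, of which 21 have eligible sequence.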

How the data were processed

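Whole L4 worms of 1 group were profiled by ChIP-seq in 2 replicates. Per the deposited descriptions, the authors made relaxed peak lists of replicate 1, replicate 2 and the pooled reads, each against 1 control, and a thresholded set by IDR. Tools, versions and thresholds were not given in the sources used here. Each peak's signal value is the authors' own score in the deposited lists, and classes of peaks were compared only within a list. Ratios of replicate 1 to replicate 2 set values of 2 lists side by side and are descriptive. Lists on ce10 were not used. No counts are given, so depth is unknown, and Wilson intervals cover the number of peaks only. The intervals and the McNemar tests count peaks that overlap as separate.

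Summits (peak start plus offset) were set against Ensembl release 115 genes on WBcel235, which is ce11, and the RefSeq sequence of that assembly. All peak ends lay within its chromosomes. Coordinates are 1-based. Summits within 100 bp counted as shared between lists. Motif searches covered both strands, 50 bp to either side of each summit and windows of equal length 500 bp away, with overlapping matches counted once, and compared with two-sided exact McNemar tests at an adjusted threshold of 0.05 (Benjamini-Hochberg, over 10 tests in each set of members). Eligible sequence was sampled every 200 bp. Scripts used Python 3.11.15, numpy 2.4.6, pandas 2.3.3, scipy 1.17.1 and matplotlib 3.10.9, and were tested on simulated data. Of the entries in 13 gene lists, 2 matched no gene.

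The members, lists, motifs and tests were chosen with earlier results of these data known. The genes named are those at the 20 strongest members, at all members of both HIF-1 lists, at the 5 farthest thresholded members and at the strongest member of each other list. Starts of HIF-1 list genes within 10000 bp of a member, neighbours in the same gap, genes of the same metabolic lists and the cel-mir-60 summit were named after their values were seen. Alternatives covered the promoter window, the gene starts used, noncoding genes, repeated sequence, weaker peaks, each replicate alone, the matching distance and the motif window.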

Additional observations from a re-analysis of the deposited data

How the results depend on the processing

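No paired analysis was possible because there is 1 group only. The core was more frequent at the summit than in both flanks under all 12 alternatives, from 13.4% with a window of 25 bp to 46.2% in thresholded members, with adjusted p up to 4.12e-05 (exact McNemar test). Using all transcript starts left the same 936 members and 1 summit per interval left 935, so these alternatives could hardly change the result. None of the alternatives merged peaks that overlap in part. With the stronger 50% of pooled peaks alone there were 457 members, 20.4% of them thresholded and 65.2% in both replicates. Each replicate's list alone gave 2003 to 2135 members. Of these, 4.12% to 4.34% had a thresholded summit within 100 bp, a measure unlike the share of pooled members that were themselves in the set. The share in both replicates was 30.3% with summits matched within 50 bp and 58.1% within 200 bp. The ratio of the members' median signal to that of promoter peaks, 0.915, was 0.905 with promoters cut to 500 bp upstream and 100 bp downstream, 0.948 with 2000 bp and 500 bp, 0.925 with all transcript starts, 0.952 in the stronger 50% and 0.939 to 0.946 in the replicates alone. It was 1.006 among thresholded peaks and 0.994 against all other autosomal peaks. The lowest thresholded signal was 54.4 in members and 54.1 in promoter peaks. Both classes were thus cut at nearly the same signal, which draws their medians together, so the 1.006 cannot show how strong sites of the 2 classes compare. The rho of signal with distance was -0.118 with the narrower window, -0.0521 with the wider one, -0.0464 in the stronger 50%, -0.0782 to -0.0471 in the replicates alone, -0.184 among thresholded members and -0.0411 to starts of any gene. The causes were not tested. Signal has no replicate test here. Depth is unknown, and its part in how many weak peaks are listed was not tested.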
